A study of Homo sapiens with 12 samples.

Results

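A set of 40 genes, nearly all of skeletal muscle, was followed across RNA libraries of the human melanoma line A375. These were the 40 of 26475 entries of the count table that carry a listed name. The list was drawn up from how these genes varied between the same libraries, so their levels, spread and drop are descriptions and carry no test. The 12 libraries fell into 4 groups of 3. Cells were given the BRPF1/2/3 inhibitor OF1 and the CDC7 inhibitor XL413 together at 1 µM each, OF1 alone at 1 µM, XL413 alone at 1 µM, or the vehicle DMSO, for 24 h. All groups are cultures of this 1 line in the same medium, with no genetic change named in the labels. OF1 binds the bromodomains of BRPF scaffold proteins, and CDC7 is a kinase that starts DNA replication. RNA was selected by its poly(A) tail and read with the strand kept. The labels do not say whether each library had a culture of its own, and p-values therefore reflect library-to-library spread that may be technical. Total counts ran from 30499559 to 36062138 per library.

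Skeletal muscle forms when a cascade of transcription factors is switched on in turn. PAX7 marks muscle stem cells, MYF5 and MYOD1 commit cells to the lineage, and MYOG and MYF6 act during differentiation. Differentiated cells then build sarcomeres from thick filaments of myosin, thin filaments of actin with the troponins, and Z-discs that anchor them, and place calcium channels and acetylcholine receptors in their membranes. Melanocytes arise from the neural crest and are not known for sarcomeres.

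The label was checked against the counts first. Of the 40 members 39 passed the filter on low counts and 1 did not, MYBPC1, with 1 to 11 counts per library. Among defining genes of skeletal muscle, the members MYOD1, MYOG, MYH3, DES and TTN were counted in all 12 libraries. Several other defining muscle genes were near 0: MYH4, ACTN3, MYBPC2, CKMT2 and MB averaged below 0.1 CPM (counts scaled to a common library size with TMM factors). The cardiac markers MYL7 and TBX5 had no count in any library, and NPPA and TNNI3 averaged below 0.1 CPM. Other cardiac markers were present in all 12 libraries: NKX2-5 at 21.9 to 27.4 CPM, RYR2 at 13.3 to 16.3 CPM, GATA4 at 9.83 to 11.9 CPM and HAND2 at 1.89 to 3.02 CPM. The name skeletal muscle therefore describes most members, with a partial set of the tissue's genes. H19, MSC and VGLL2 are not sarcomere genes. RNA from A375 cells in bulk cannot show whether a few cells carry these transcripts or all cells carry a little, and fewer cells of a type and less RNA per cell cannot be told apart. All members together took 0.0129% to 0.0845% of a library's counts.

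Members varied within every treatment group, and were lowest in 2 of the 3 libraries given both inhibitors. The mean log2 CPM of the 39 filtered members (prior count 2), called the muscle score here, was 1.21, -0.39 and 0.07 in OF1+XL413 replicates 1, 2 and 3. It was 1.62, 2.53 and 2.63 in OF1, 2.70, 2.32 and 1.62 in XL413, and 1.17, 1.62 and 2.41 in DMSO. Group means were 0.29 ± 0.82 in OF1+XL413, 2.26 ± 0.56 in OF1, 2.22 ± 0.54 in XL413 and 1.73 ± 0.63 in DMSO (SD, n = 3 each). OF1+XL413 replicate 1 lay just above DMSO replicate 1 and so within the range of the other groups, while replicates 2 and 3 lay below all the other libraries. Between the highest and lowest library of a group the score differed by 1.60 in OF1+XL413, 1.01 in OF1, 1.07 in XL413 and 1.24 in DMSO. The mean of OF1+XL413 replicates 2 and 3 was 2.14 below that of the other 10 libraries on the log2 scale, against a pooled SD within groups of 0.65. Summed without H19, the members gave 184, 77.1 and 99.5 CPM in OF1+XL413, 221, 413 and 459 CPM in OF1, 443, 338 and 227 CPM in XL413, and 168, 215 and 372 CPM in DMSO.

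**Figure D1:**
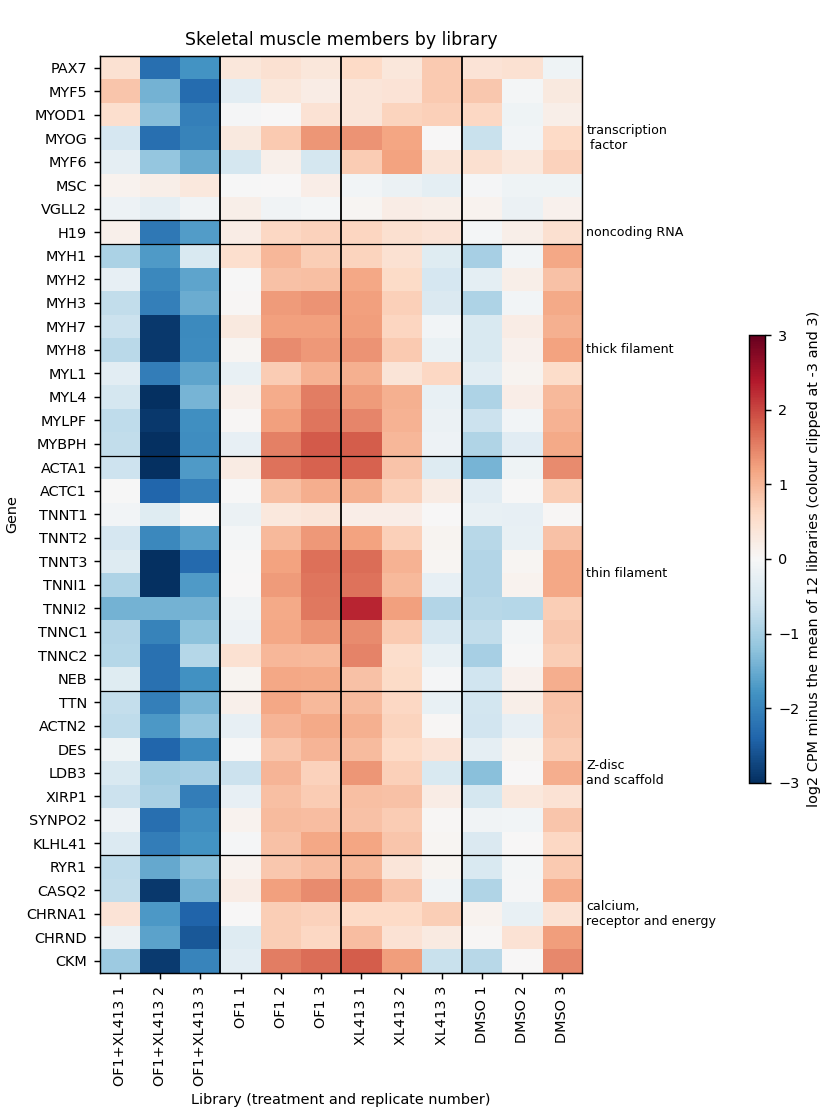
Log2 CPM of 39 members (rows, grouped by role) in the 12 libraries (columns, OF1+XL413, OF1, XL413 and DMSO), each minus the gene's mean over the 12, with red above and blue below. OF1+XL413 replicates 2 and 3 are blue for most members of every role, close to white for VGLL2 and TNNT1 and red for MSC, and the filament genes are red in OF1 replicates 2 and 3, XL413 replicates 1 and 2 and DMSO replicate 3.

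Promoter sequence is shown for 4 members that stand for different behaviours: MYF5 and CHRNA1, which varied less than most filament genes outside the 2 low libraries, and ACTA1 and MYH8, which varied widely in every group. The 250 bases before the start of each gene are from RefSeq on GRCh38.p14, written 5′ to 3′ on the gene's strand: MYF5 at chr12:80716662-80716911 (plus strand), CHRNA1 at chr2:174764473-174764722, ACTA1 at chr1:229434095-229434344 and MYH8 at chr17:10421951-10422200 (minus strand). Capitals mark matches to 4 motifs searched on both strands: CAGCTG (an E-box that MyoD-type factors can bind), TATAAA (the TATA box), the MEF2 motif and the CArG box of serum response factor.
MYF5: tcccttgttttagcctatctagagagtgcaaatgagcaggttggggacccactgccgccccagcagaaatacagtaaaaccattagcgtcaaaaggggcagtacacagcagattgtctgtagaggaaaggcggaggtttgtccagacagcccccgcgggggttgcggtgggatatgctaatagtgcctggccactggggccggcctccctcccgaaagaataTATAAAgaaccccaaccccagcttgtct
CHRNA1: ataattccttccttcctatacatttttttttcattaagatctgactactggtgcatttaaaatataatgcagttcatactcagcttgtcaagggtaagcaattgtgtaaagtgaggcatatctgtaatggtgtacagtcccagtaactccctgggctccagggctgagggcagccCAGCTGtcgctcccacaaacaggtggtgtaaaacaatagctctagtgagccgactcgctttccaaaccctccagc
ACTA1: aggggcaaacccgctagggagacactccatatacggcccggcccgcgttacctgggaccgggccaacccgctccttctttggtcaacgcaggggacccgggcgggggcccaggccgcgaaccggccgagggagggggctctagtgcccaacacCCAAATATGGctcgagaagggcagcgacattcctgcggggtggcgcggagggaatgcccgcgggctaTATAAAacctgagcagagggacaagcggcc
MYH8: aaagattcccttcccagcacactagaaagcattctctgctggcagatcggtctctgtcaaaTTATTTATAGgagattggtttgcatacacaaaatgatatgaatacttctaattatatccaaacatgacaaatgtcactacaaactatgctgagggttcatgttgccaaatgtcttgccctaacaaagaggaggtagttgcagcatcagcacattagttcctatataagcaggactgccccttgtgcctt
The MYF5 match is TATAAA, 28 bases before the start, and the CHRNA1 match is CAGCTG, 75 bases before it. ACTA1 has a CArG box 97 bases and TATAAA 30 bases before the start. In MYH8 the capitals are a MEF2 match that begins 189 bases before the start and overlaps TATAAA on the other strand, at 186 bases. Of the 40 members 28 had a promoter sequence in the table. CAGCTG was in 9 of these (32.1%, against 16.7% of 27305 genes), TATAAA in 10 (35.7%, against 13%), MEF2 in 8 (28.6%, against 3.44%) and CArG in 3 (10.7%, against 1.44%), and no test was made of these shares. A match describes letters only, and says nothing of what binds in A375 cells.

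Among the transcription factors, PAX7, MYF5 and MYOD1 were low in 2 libraries and varied less than most filament genes in the other 10. PAX7, the muscle stem cell factor, had 0.528, 0.0280 and 0.0623 CPM in OF1+XL413, 0.474, 0.521 and 0.480 CPM in OF1, 0.580, 0.479 and 0.672 CPM in XL413, and 0.510, 0.528 and 0.329 CPM in DMSO. These are few reads, with 17, 1 and 2 counts in OF1+XL413 and 11 to 24 counts in each of the others. MYF5, whose promoter is shown above, had 2.11, 0.392 and 0.187 CPM in OF1+XL413, 0.919, 1.46 and 1.35 CPM in OF1, 1.51, 1.56 and 2.04 CPM in XL413, and 2.07, 1.11 and 1.43 CPM in DMSO. OF1+XL413 replicate 1 was the highest of the 12 libraries for MYF5 and replicates 2 and 3 the lowest, so the groups overlapped through 1 library. MYOD1, a factor that can turn other cell types into muscle, had 1.58, 0.420 and 0.218 CPM in OF1+XL413, 1.07, 1.11 and 1.5 CPM in OF1, 1.42, 1.79 and 1.85 CPM in XL413, and 1.71, 0.997 and 1.26 CPM in DMSO. The mean of the other 10 libraries was 11.3 times that of OF1+XL413 replicates 2 and 3 for PAX7, 5.38 times for MYF5 and 4.47 times for MYOD1. Within the DMSO, XL413 and OF1 groups their SD was 0.23, 0.34 and 0.29 on the log2 CPM scale. That is above the SD of 82.4%, 89.9% and 86.6% of all tested genes. Those genes were not matched for count level, and few counts alone widen such an SD.

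The later factors MYOG and MYF6 differed from these in how they varied. MYOG, which drives fusion and filament genes, had 0.901, 0.224 and 0.280 CPM in OF1+XL413, 1.63, 2.31 and 3.36 CPM in OF1, 3.45, 3.03 and 1.32 CPM in XL413, and 0.809, 1.23 and 2.00 CPM in DMSO. It was higher in DMSO replicate 3 than in replicate 1 by 2.47 times, while MYF5 was lower there (0.693 times). MYF6 had 0.155, 0.0561 and 0.0312 CPM in OF1+XL413, 0.119, 0.228 and 0.120 CPM in OF1, 0.377, 0.543 and 0.280 CPM in XL413, and 0.3, 0.264 and 0.359 CPM in DMSO. Its OF1 libraries lay below all those of XL413 and DMSO, and its OF1+XL413 libraries overlapped those of OF1. MYF6 and MYF5 are neighbours on chromosome 12 (80707634 to 80709474 and 80716912 to 80719671). The next gene, PTPRQ, had 0.112 and 0.0935 CPM in OF1+XL413 replicates 2 and 3 and 0.0889 to 0.323 CPM in the other 10 libraries. PTPRQ had at most 11 counts in a library and did not pass the filter, which is too few to show whether it dropped.

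MSC and VGLL2 did not take part in the drop. MSC (musculin), a repressor of muscle differentiation, had 24.8, 25.9 and 28.9 CPM in OF1+XL413, 22.8, 23.3 and 26.5 CPM in OF1, 21.7, 20.5 and 18.9 CPM in XL413, and 22.6, 21.1 and 21.1 CPM in DMSO. Its OF1+XL413 libraries lay above all those of DMSO and XL413 and overlapped those of OF1. VGLL2, a cofactor of TEAD factors in muscle, had 3.91, 3.62 and 4.05 CPM in OF1+XL413, 4.89, 4.04 and 4.17 CPM in OF1, 4.56, 5.05 and 4.96 CPM in XL413, and 4.65, 3.81 and 4.75 CPM in DMSO. OF1+XL413 replicate 2 had the lowest of these values by a narrow margin. Against the other 10 libraries, OF1+XL413 replicates 2 and 3 differed by 0.30 for MSC and -0.22 for VGLL2 on the log2 CPM scale.

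H19, an imprinted noncoding RNA of embryonic tissue and muscle, varied less than most filament genes in the same 10 libraries. Its level was 266, 53.6 and 74.8 CPM in OF1+XL413, 279, 364 and 385 CPM in OF1, 370, 331 and 318 CPM in XL413, and 228, 271 and 335 CPM in DMSO. The 10 libraries other than OF1+XL413 replicates 2 and 3 stayed between 228 and 385 CPM, and those 2 kept 20.4% of their mean. H19 lies on chromosome 11 (1995176 to 2001266) near the fast troponin genes TNNI2 (1838981 to 1841678) and TNNT3 (1919552 to 1938702) and near IGF2 (2129117 to 2149566). IGF2, a growth factor imprinted together with H19, had 50.6, 14.1 and 16.9 CPM in OF1+XL413 and 58.0 to 76.4 CPM in the other 9 libraries. LSP1, between the troponin genes, was also lower in OF1+XL413 replicates 2 and 3 (0.617 and 0.436 CPM) than in the other 10 libraries (2.1 to 3.51 CPM). MRPL23, a mitochondrial ribosomal gene in the same stretch, was not, with 42.3 and 49.2 CPM against 43.2 to 53.2 CPM.

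**Figure D2:**
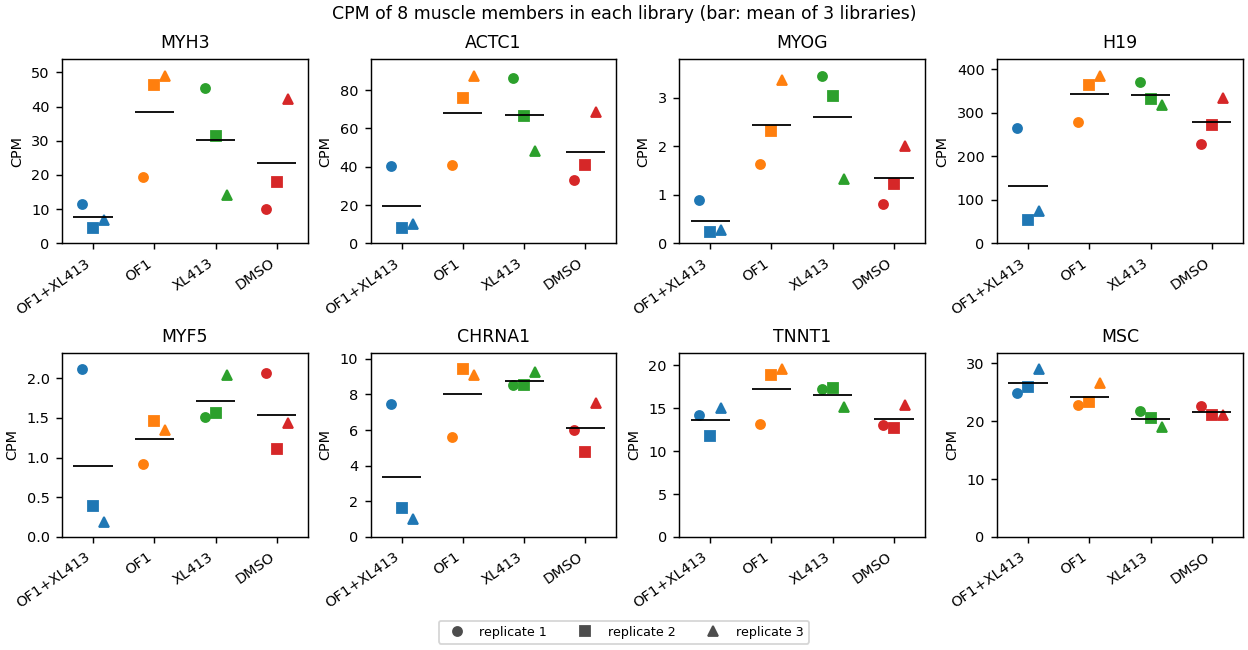
CPM of 8 members (1 panel each, y axes from 0) in the 3 libraries of each treatment, with 1 point per library, its shape giving the replicate number, and a bar at the group mean. MYH3, ACTC1 and MYOG spread within every group, H19, MYF5 and CHRNA1 are lowest in OF1+XL413 replicates 2 and 3, and TNNT1 and MSC stay at 11.7 to 19.5 CPM and 18.9 to 28.9 CPM.

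The myosin heavy chains, motors of the thick filament, were high and low in the same libraries. MYH3, the embryonic form, had 11.5, 4.54 and 6.73 CPM in OF1+XL413, 19.5, 46.3 and 49.0 CPM in OF1, 45.3, 31.4 and 14.1 CPM in XL413, and 10.1, 18 and 42.1 CPM in DMSO. The perinatal form MYH8 had 1.4, 0.280 and 0.623 CPM in OF1+XL413, 2.58, 6.67 and 6.18 CPM in OF1, 6.41, 4.34 and 2.16 CPM in XL413, and 1.80, 2.73 and 5.77 CPM in DMSO. MYH7, the slow and cardiac beta form, had 3.85, 0.757 and 1.56 CPM in OF1+XL413, 7.47, 14.4 and 14.4 CPM in OF1, 14.6, 9.58 and 5.74 CPM in XL413, and 4.41, 7.13 and 12.8 CPM in DMSO. For MYH8 and MYH7 all 3 OF1+XL413 libraries lay below those of the other groups, while MYH3 overlapped DMSO through replicate 1. MYH7 lies on chromosome 14, away from the cluster on chromosome 17 that holds MYH8 (10390322 to 10421950), MYH1, MYH2 and MYH3 (10628532 to 10678417). The fast adult forms were less regular. MYH1 had 0.466, 0.252 and 0.686 CPM in OF1+XL413, 1.39, 1.98 and 1.65 CPM in OF1, 1.57, 1.34 and 0.728 CPM in XL413, and 0.450, 0.909 and 2.21 CPM in DMSO. MYH2 ran from 0.308 to 1.12 CPM in OF1+XL413 and from 0.924 to 3.08 CPM in the other 9 libraries. Counts of MYH1 and MYH2 were not whole in 12 and 11 of the 12 libraries, so some of their reads were divided between genes by estimate. Which genes shared these reads was not examined, and the split between MYH1 and MYH2 is uncertain. Counts of MYH7, H19 and MSC were also not whole in 12 libraries, and those of MYH8 in 7. MYH13, a myosin at the end of the chromosome 17 cluster, did not drop with MYH2, MYH3 and MYH8. It had 0.683, 0.364 and 0.717 CPM in OF1+XL413 and 0.478 to 1.12 CPM in the other 9 libraries. MYH4 stayed at or below 0.195 CPM.

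The light chains MYLPF and MYL4 and the myosin-binding protein MYBPH were high and low in the same libraries as MYH8. MYLPF, the fast regulatory light chain (MYL11 in RefSeq), had 2.14, 0.448 and 0.997 CPM in OF1+XL413, 3.76, 8.72 and 11.3 CPM in OF1, 10.2, 7.70 and 3.28 CPM in XL413, and 2.34, 3.46 and 7.68 CPM in DMSO. MYBPH, a myosin-binding protein, spread most of the thick filament genes, with 1.89, 0.336 and 0.841 CPM in OF1+XL413, 2.70, 9.34 and 11.7 CPM in OF1, 11.4, 6.45 and 2.88 CPM in XL413, and 1.68, 2.52 and 7.14 CPM in DMSO. Its SD within the DMSO, XL413 and OF1 groups was 1.06 on the log2 CPM scale, above 99.4% of all tested genes. The embryonic and atrial light chain MYL4 ranged from 0.140 to 5.40 CPM and MYL1, the fast essential light chain, from 0.224 to 2.47 CPM, both with their lowest value in OF1+XL413 replicate 2. MYL1 departed from MYH8 in XL413, where replicate 3 (1.79 CPM) was above replicate 2 (1.5 CPM). MYBPC1, which did not pass the filter, ranged from 0.0280 to 0.330 CPM and did not keep the order of MYH8, with 0.261, 0.287 and 0.308 CPM in XL413 and 0.0899, 0.293 and 0.149 CPM in DMSO.

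Both sarcomeric actins were high and low with the myosins. ACTC1, the cardiac alpha actin that fetal skeletal muscle also makes, had 40.5, 7.88 and 9.85 CPM in OF1+XL413, 40.7, 76.0 and 87.4 CPM in OF1, 86.4, 66.7 and 48.4 CPM in XL413, and 32.9, 40.8 and 68.7 CPM in DMSO. ACTA1, the adult skeletal alpha actin, had 1.89, 0.224 and 0.873 CPM in OF1+XL413, 3.50, 9.24 and 10.3 CPM in OF1, 10.2, 5.37 and 2.24 CPM in XL413, and 1.08, 2.70 and 7.98 CPM in DMSO. ACTA1 was 7.39 times as high in DMSO replicate 3 as in replicate 1, without any treatment, and 45.8 times as high in its highest library as in its lowest. Their sequences are alike, and counts of ACTA1 were not whole in 8 libraries and those of ACTC1 in 4, so a small part of their reads may be exchanged.

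The 7 troponins make the thin filament respond to calcium, and 6 of them varied with the actins. TNNT3, the fast troponin T, had the largest drop of all members, with 1.37, 0.140 and 0.312 CPM in OF1+XL413, 1.81, 4.23 and 5.79 CPM in OF1, 5.89, 3.80 and 1.90 CPM in XL413, and 0.959, 1.88 and 4.15 CPM in DMSO. TNNI1, the slow troponin I, had 3.76, 0.813 and 2.18 CPM in OF1+XL413, 7.17, 17.5 and 21.9 CPM in OF1, 22.4, 14.2 and 6.05 CPM in XL413, and 3.90, 7.77 and 16.2 CPM in DMSO. TNNT2, the cardiac and embryonic troponin T, ranged from 2.92 to 7.98 CPM in OF1+XL413 and from 6.39 to 28.3 CPM in the other 9 libraries, and TNNC1, the slow and cardiac troponin C, from 0.925 to 2.08 CPM and from 2.31 to 10.5 CPM. TNNC2, the fast troponin C, had 0.466, 0.140 and 0.467 CPM in OF1+XL413, so that replicate 3 was as high as replicate 1 and above the 0.420 CPM of DMSO replicate 1. TNNI2, the fast troponin I, had a count of 0 in all 3 OF1+XL413 libraries, which allows up to 3 counts in each, and 0.0280 to 0.726 CPM elsewhere.

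TNNT1, the slow troponin T, was the exception. It had 14.2, 11.7 and 15 CPM in OF1+XL413, 13.2, 18.8 and 19.5 CPM in OF1, 17.2, 17.3 and 15.1 CPM in XL413, and 13, 12.7 and 15.4 CPM in DMSO. The groups overlapped, and OF1+XL413 replicates 2 and 3 kept 85.3% of the mean of the other 10 libraries. Its deviations within the 9 libraries outside OF1+XL413 still followed those of the other members (Pearson r 0.87), over a narrow range, with an SD of 0.21. The highest library was 1.66 times the lowest for TNNT1 and 1.53 times for MSC.

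The giant proteins and the Z-disc genes were also low in OF1+XL413 replicates 2 and 3, by 1.22 (LDB3) to 2.56 (DES) on the log2 CPM scale. NEB (nebulin), a ruler of the thin filament, had 3.88, 1.01 and 1.37 CPM in OF1+XL413, 5.28, 11.2 and 11 CPM in OF1, 9.26, 7.41 and 4.84 CPM in XL413, and 3.27, 5.49 and 10.6 CPM in DMSO. TTN (titin), which spans the sarcomere as a spring, had 4.16, 1.63 and 2.62 CPM in OF1+XL413, 7.71, 15.5 and 13.5 CPM in OF1, 13.3, 10.6 and 5.94 CPM in XL413, and 4.71, 7.83 and 12.6 CPM in DMSO. All 3 OF1+XL413 libraries were below the other 9 for TTN, but not for NEB. DES (desmin), the muscle intermediate filament, had 20.7, 4.34 and 6.11 CPM in OF1+XL413, 22.6, 40.7 and 46.5 CPM in OF1, 44.2, 34.7 and 30.3 CPM in XL413, and 19, 24.2 and 38.5 CPM in DMSO. SYNPO2, an actin-binding protein of the Z-disc, had 6.68, 1.49 and 1.99 CPM in OF1+XL413 and 6.89 to 14.3 CPM in the other 9 libraries. Lower levels in OF1+XL413 replicates 2 and 3 than in the other 10 libraries were also seen for ACTN2, the Z-disc actinin (1.12 and 1.68, against 2.27 to 8.5 CPM), for KLHL41, which stabilises nebulin (0.869 and 1.06, against 2.82 to 8.77 CPM), and for XIRP1, an actin-binding repeat protein (0.336 and 0.125, against 0.435 to 1.4 CPM). LDB3, a Z-disc PDZ protein, was not separated, since DMSO replicate 1 had 0.330 CPM and OF1+XL413 replicates 2 and 3 had 0.392 and 0.405 CPM.

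Genes of calcium release, the synapse and energy supply completed the set. RYR1, the calcium release channel of skeletal muscle, had 1.96, 1.12 and 1.4 CPM in OF1+XL413, 3.65, 5.99 and 6.51 CPM in OF1, 6.70, 4.41 and 3.58 CPM in XL413, and 2.46, 3.26 and 5.86 CPM in DMSO. Its 3 OF1+XL413 libraries were below all others, and its drop was the smallest of those in this role. CASQ2, a calcium store protein, ranged from 0.336 to 1.71 CPM in OF1+XL413 and from 1.5 to 7.78 CPM in the other 9 libraries. CHRNA1, the alpha subunit of the muscle acetylcholine receptor, followed MYF5 more than MYH3, with 7.45, 1.65 and 0.997 CPM in OF1+XL413, 5.60, 9.40 and 9.10 CPM in OF1, 8.5, 8.53 and 9.27 CPM in XL413, and 6, 4.78 and 7.50 CPM in DMSO. XL413 replicate 3, low for the filament genes, was the highest of its group for CHRNA1. CHRND, the delta subunit, had 0.248, 0.0561 and 0 CPM in OF1+XL413 and 0.207 to 0.777 CPM in the other 9 libraries. CKM, the muscle creatine kinase, had 0.342, 0.0561 and 0.156 CPM in OF1+XL413, 0.622, 2.41 and 2.64 CPM in OF1, 2.93, 1.95 and 0.476 CPM in XL413, and 0.420, 0.792 and 2.24 CPM in DMSO. Its SD within the DMSO, XL413 and OF1 groups, 1.19 on the log2 scale, was the widest of all 39.

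The library in which members were highest was the same for most of them within each group. Of 40 members 35 were highest in OF1+XL413 replicate 1 and 32 were lowest in replicate 2. In OF1, 38 were lowest in replicate 1 and 26 highest in replicate 3. In XL413, 32 were highest in replicate 1 and 33 lowest in replicate 3, and in DMSO 35 were highest in replicate 3 and 31 lowest in replicate 1. DMSO replicates 1, 2 and 3 came in ascending order for 30 members, XL413 replicates in descending order for 31 and OF1 replicates in ascending order for 25, and 20 members kept all 3 orders. The labels do not say whether replicate numbers pair libraries across groups, and a high number 3 in DMSO and OF1 went with a low number 3 in XL413. PAX7, MYF5 and MYOD1 were among those that broke the pattern, with DMSO replicate 1 above replicate 3.

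Deviations from group means were strongly shared among the filament and scaffold genes. Over 9 libraries outside OF1+XL413, the 325 pairs of 26 such genes had a median Pearson r of 0.95, and 93.8% of pairs were over 0.8. Over all 39 members and 741 pairs the median was 0.90 in these 9 libraries and 0.79 in all 12. Each member was also set against the mean of the other members. That r was over 0.9 for 29 of 39 members in the 9 libraries, and below 0 for PAX7 (-0.60), MYF5 (-0.12), MYOD1 (-0.21) and VGLL2 (-0.34). PAX7 had only 11 to 24 counts in these libraries, and VGLL2 an SD of only 0.14. Counting noise can lower such an r, and its part was not tested. MYOG stood with the filament genes at 0.94, as did H19 at 0.94, while CHRNA1 (0.59), MYF6 (0.51) and MSC (0.43) were in between. Members were chosen for varying together, all points share the same few libraries and their depth, and genes are not replicates, so these r describe the libraries and carry no p.

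**Figure D3:**
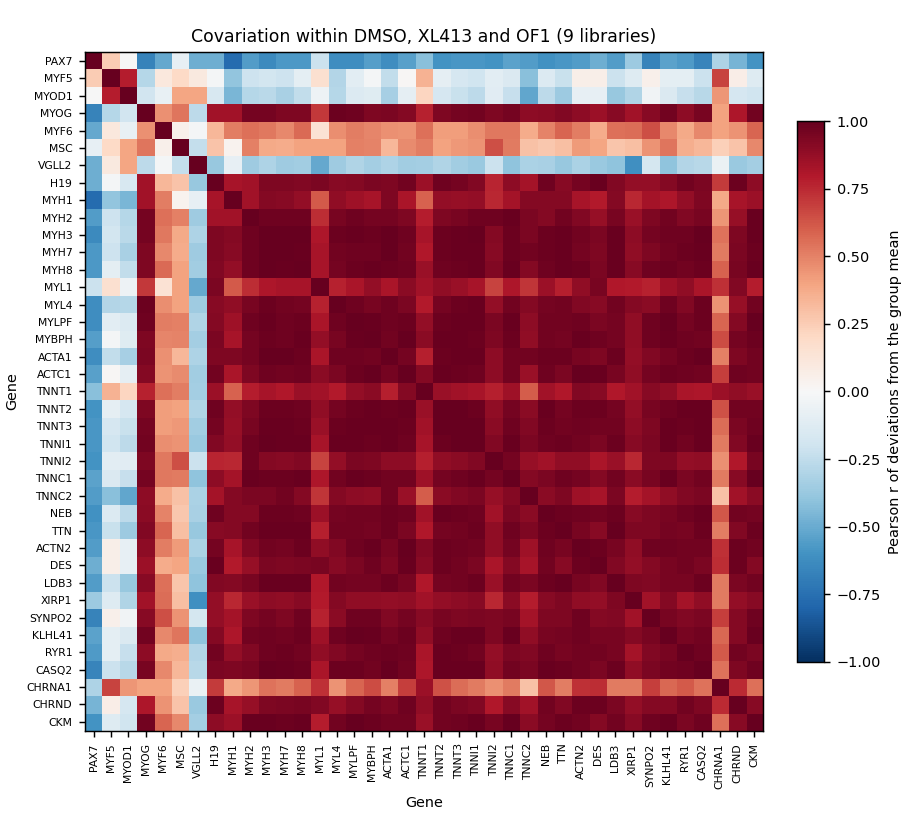
Pearson r between 39 members (both axes) of their deviations from the group mean of log2 CPM, over the 9 libraries of OF1, XL413 and DMSO, from -1 (blue) to 1 (red). A red block holds the filament, scaffold and calcium genes with MYOG and H19, and PAX7, MYF5, MYOD1 and VGLL2 are pale or blue against it.

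The non-members whose deviations were most like the muscle score over 12 libraries were NCAM1, PRUNE2, AP1S2, ANKRD1, MRAS, DCLK1, ELN, TAGLN, MAML1 and CLIP4, out of 12287 genes with a mean log2 CPM of at least 1. Their r ran from 0.93 to 0.99. NCAM1, an adhesion molecule of nerve and muscle (r 0.99), had 7.64, 3.76 and 4.33 CPM in OF1+XL413, 8.15, 12 and 13.7 CPM in OF1, 11.1, 9.80 and 6.44 CPM in XL413, and 6.45, 7.31 and 11.9 CPM in DMSO. PRUNE2 (r 0.98) had 3.91, 0.869 and 1.06 CPM in OF1+XL413, 4.95, 10.9 and 11.4 CPM in OF1, 11.1, 7.86 and 4.96 CPM in XL413, and 3.87, 6.54 and 10.1 CPM in DMSO. Likeness of pattern did not mean likeness of size: AP1S2 (r 0.96) moved only between 49.9 and 62.2 CPM over the 12 libraries.

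By spread and drop most members are described here as 3 kinds, set by eye with no threshold, and values run on between them. MYF6, with an SD of 0.35 and a drop of -1.60, is placed in none. Most filament, scaffold and calcium genes varied widely in the 9 libraries outside OF1+XL413 and dropped as well, such as CKM, ACTA1, MYBPH and TNNI1. PAX7, MYF5, MYOD1, CHRNA1 and H19 varied less there, with an SD of 0.22 to 0.34. Those genes had a drop of -2.48 (CHRNA1) to -2.0 (MYOD1) on the log2 CPM scale. Their SD is still above that of 81.6% to 89.9% of all tested genes, which were not matched for count level. Few counts widen the SD, and PAX7 had 11 to 24 counts in each of these 9 libraries. MSC, VGLL2 and TNNT1 had the smallest SD of the 39 members tested, 0.10 to 0.21, and differed by no more than 0.30 in either direction. The median SD was 0.66 over the 39 members and 0.08 over all 15353 tested genes, again not matched for count level. OF1+XL413 replicates 2 and 3 were both below all 10 other libraries and at least 2-fold lower for 32 of 39 members, and for 231 of all tested genes, or 1.5%. The members were picked for this, so nothing is read from that difference. The 7 members outside the count were MSC, VGLL2, TNNT1, TNNC2, TNNI2, LDB3 and MYH1. Of the 199 non-members in it, 32 were among the 94 tested genes of the 4 lists of other muscle genes. Another 8 were among the 20 fibroblast and matrix markers. Going the other way, 7 genes were above all 10 by at least 2-fold, none of them a member. The median drop was -2.79 for the thick filament, -2.29 for the thin filament, -2.05 for the Z-disc and scaffold genes, -2.49 for the calcium, receptor and energy genes and -2.0 for the transcription factors. Set against OF1+XL413 replicate 1 alone, of the same treatment, the median over 39 members was -1.51.

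**Figure D4:**
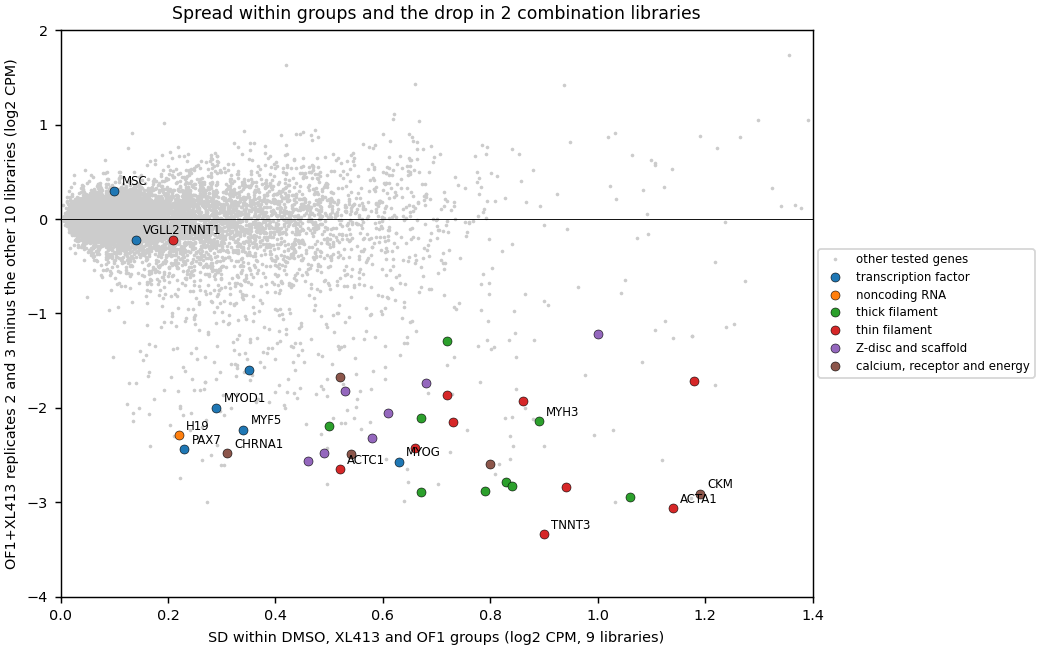
Each point is a tested gene, members coloured by role, with the SD of log2 CPM within the OF1, XL413 and DMSO groups (x axis, 9 libraries) and the mean log2 CPM of OF1+XL413 replicates 2 and 3 minus that of the other 10 libraries (y axis). Members run from MSC at 0.10 and 0.30 to CKM at 1.19 and -2.91, with PAX7, MYF5, MYOD1, CHRNA1 and H19 at lower spread than most members and low y, and 50 other genes lie outside the axes.

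Comparisons between treatments depended on which libraries were in them. The call used is a Benjamini-Hochberg adjusted p under 0.05 over all 15353 genes in edgeR's quasi-likelihood test, and for members it is a description. For OF1+XL413 against DMSO, 1 member was called higher (MSC) and 9 lower (CHRND, DES, MYF6, MYH7, MYH8, NEB, RYR1, SYNPO2 and TTN), where 10.7% of all genes were called (5.65% higher and 5.07% lower), and 29 did not pass. The median log2 fold change was -1.43 over the 39 members and -0.002 over all genes. For MYH3 the log2 fold change was -1.64 ± 0.55 (SE), for ACTC1 -1.30 ± 0.47 and for MYOD1 -0.84 ± 0.46, none of them called. With replicate 1 of OF1+XL413 left out 27 were called, as were 2113 of all 15523 genes tested. Without OF1+XL413 replicates 2 and 3 no member was called, in that comparison or against either inhibitor alone. That fit has 1 OF1+XL413 library, assumed to vary like the other groups, and calls fewer genes of any kind (857 of 15801 against DMSO, in place of 1645 of 15353), so its 0 does not show how much those 2 libraries matter. The count of 10 for OF1+XL413 against DMSO became 1 without OF1+XL413 replicate 2, with 0 members lower and 1035 of 15519 genes called. It became 1 without its replicate 3 (lower, 1306 of 15519 genes) and 1 without DMSO replicate 2 (lower, 728 of 15512). Without DMSO replicate 3 it was 0 (751 of 15520). It became 18 without DMSO replicate 1 (1126 of 15520) or OF1 replicate 1 (1751 of 15510). It became 6 without OF1 replicate 2 (1386 of 15525), XL413 replicate 1 (1503 of 15510) or XL413 replicate 2 (1447 of 15516).

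OF1+XL413 against XL413 had 1 member called higher and 22 lower, where 3.41% of all genes were called (1.06% higher and 2.35% lower), with a median of -1.99. OF1+XL413 against OF1 had 27 called lower and none higher, where 5.5% of all genes were called (2.71% lower), with a median of -1.96. All 3 comparisons share the OF1+XL413 libraries, so their counts are not separate observations. MYBPH had a log2 fold change of -2.97 ± 0.71 against OF1, -2.77 ± 0.71 against XL413 and -1.90 ± 0.75 against DMSO, and was called in the comparisons with the single inhibitors only. MYF5 had -0.48 ± 0.55, -0.94 ± 0.52 and -0.79 ± 0.53 and was called in none, with OF1+XL413 replicate 1 as its highest library. Leaving out any 1 of the 12 libraries gave counts of 1 to 35 members against XL413 and of 0 to 34 against OF1. Without OF1+XL413 replicate 2, the library with the lowest score, they were 1 (0 lower, with 168 of 15519 genes called) and 0 (212 genes). Without replicate 3 they were 11 (619 of 15519 genes) and 7 (370 genes). Without OF1+XL413 replicate 1 they were 35 (828 of 15523 genes) and 34 (2227 genes). The count against XL413 was 15 without OF1 replicate 2 (402 of 15525) or DMSO replicate 2 (383 of 15512). Without XL413 replicate 1 it was 1 (0 lower, 191 of 15510), and without XL413 replicate 2 it was 3 (197 of 15516). Without OF1 replicate 2 or 3 the count against OF1 was 4 each time (291 of 15525 and 382 of 15513 genes).

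Each inhibitor alone called no member. XL413 against DMSO had 0 members called in edgeR, where 2.8% of all genes were called (1.26% higher and 1.54% lower), with a median log2 fold change of 0.47 and 1 member at an unadjusted p under 0.05, as were 18.6% of all genes. OF1 against DMSO had 0 members called in edgeR, where 1.15% of all genes were called (0.58% higher and 0.567% lower), with a median of 0.52 and 2 members at an unadjusted p under 0.05, as were 14.4% of all genes. DESeq2 called 0 members in both, and 628 (XL413) and 350 (OF1) of all 15353 genes. The log2 fold change was above 0 for 37 of 39 members with XL413 and for 34 of 39 with OF1. Its median over all genes was 0 with XL413 and 0.004 with OF1, and the share of all genes above 0 is not given. Members vary together and both comparisons share the DMSO libraries, so these counts are not separate observations. MYH3 averaged 38.3 ± 16.3 CPM in OF1, 30.2 ± 15.6 CPM in XL413 and 23.4 ± 16.7 CPM in DMSO (SD, n = 3 each), and DMSO replicate 3 lay above the mean of either inhibitor. Non-additivity, the log2 change of OF1+XL413 less both single log2 changes added together, had a median of -2.43 over members and 0.008 over all genes. No gene was called for it in edgeR, member or not, while 32 members and 10.2% of all genes had an unadjusted p under 0.05. DESeq2 called 4 members for it, and 108 of all 15353 genes.

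Of 94 other muscle genes tested, not among the 40, 13 were called for OF1+XL413 against DMSO. Of 41 tested sarcomere and costamere genes 2 were called higher (MYL6B and DYSF) and 3 lower (MYOM3, ANKRD2 and FLNC). Of 20 genes of excitation-contraction coupling and the neuromuscular junction 1 was called lower, CHRNG, the fetal gamma subunit of the acetylcholine receptor. Of 24 myogenic regulators 2 were called higher, EYA1 among them, and 5 lower (MEF2C, CDH15, FST, ITGA7 and IGF2), and of 9 genes of muscle energy metabolism none. FLNC, a filamin of the Z-disc, had 21.2, 6.70 and 6.14 CPM in OF1+XL413 and 26.8, 26.6 and 36.5 CPM in DMSO, a log2 fold change of -1.41 ± 0.32 (SE, adjusted p = 0.0125, edgeR). MEF2C, a partner of the MyoD family, had 5.47, 4.62 and 4.83 CPM in OF1+XL413 and 6.74, 6.66 and 10.2 CPM in DMSO, with no overlap (-0.66 ± 0.17, adjusted p = 0.0237, edgeR). CDH15, the muscle cadherin, had 2.98, 0.841 and 0.592 CPM in OF1+XL413 and 3.39, 3.08 and 4.39 CPM in DMSO (-1.31 ± 0.39, adjusted p = 0.0434, edgeR). FLNC, MEF2C and CDH15 each lost the call without OF1+XL413 replicate 2 and without DMSO replicate 3, among others for CDH15. EYA1, a transcription cofactor of early muscle precursors, was higher by 0.36 on the log2 scale (adjusted p = 0.000194, edgeR). TMEM8C, now MYMK, which fuses myoblasts, followed the filament genes at 0.342, 0.0561 and 0.0935 CPM in OF1+XL413 and 0.360, 0.293 and 0.926 CPM in DMSO, and did not pass. In these 4 lists together 13.8% of 94 tested genes were called, against 10.7% of all genes. By direction 4 rose (4.26%, against 5.65% of all genes) and 9 fell (9.57%, against 5.07%). Without OF1+XL413 replicate 1 the count was 4 and 29 of 96, without replicate 2 it was 3 and 2 of 95, without replicate 3 it was 1 and 5 of 96, and without DMSO replicates 1, 2 or 3 it was 1 and 7, 2 and 5, or 2 and 1 of 95. Without OF1+XL413 replicates 2 and 3, with 1 library left in that group, it was 1 and 1 of 97.

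Fibroblast and matrix markers were low in the same 2 libraries. The 20 markers summed to 1220, 749 and 812 CPM in OF1+XL413 and to 1300 to 1580 CPM in the other 9 libraries, and 13 of 20 were called lower for OF1+XL413 against DMSO. COL3A1, a fibrillar collagen, had 22.0, 7.15 and 9.72 CPM in OF1+XL413 and 31.7, 37.4 and 29.5 CPM in DMSO (-1.35 ± 0.25, adjusted p = 0.00345, edgeR), and -0.58 without OF1+XL413 replicates 2 and 3. DCN (decorin), made by fibroblasts, had 8.14, 2.05 and 1.78 CPM in OF1+XL413 and 8.15, 7.22 and 5.89 CPM in DMSO, and did not pass. Unlike the filament genes, these markers did not follow the muscle score in the other 9 libraries, with a median r of -0.04 over the list. The count of 13 was 6 without OF1+XL413 replicate 2, 7 without its replicate 3, and 8 or 5 without DMSO replicate 1 or 2. Without OF1+XL413 replicates 2 and 3, which leaves 1 library whose spread is taken from the other groups, 1 was called higher and 3 lower. Their part in the drop of the members was not tested.

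Markers of other cell types moved less. The 14 melanocyte and melanoma markers, 11 of them tested, summed to 1390 to 1450 CPM in OF1+XL413 and 1400 to 1560 CPM in the other 9 libraries. MITF and AXL were called lower for OF1+XL413 against DMSO, TYR was at 0 everywhere and DCT averaged below 0.1 CPM. MITF, the melanocyte master factor, averaged 34.5 ± 1.46 CPM in OF1+XL413 and 43.4 ± 0.851 CPM in DMSO (SD, n = 3 each). Of the smooth muscle (7 tested), cardiac (6), endothelial (6), blood (4) and neural (7) markers none was called for OF1+XL413 against DMSO, and of 6 keratinocyte and epithelial markers KRT5, KRT14 and SFN were called lower. The blood markers PTPRC, CD3E and HBB were at or near 0, while CD68 had 41.1 to 45 CPM and LYZ 5.04 to 6.87 CPM over the 12 libraries. TAGLN, a smooth muscle actin-binding protein, had 12.5, 7.62 and 9.54 CPM in OF1+XL413, and 12.3 to 18.9 CPM in the other 9 libraries. ACTA2, also a smooth muscle marker, had 7.30, 5.58 and 6.14 CPM in OF1+XL413, and 7.46 to 10.6 CPM in the other 9. TAGLN and ACTA2 were both called lower for OF1+XL413 against XL413 and against OF1, while MYOCD and SMTN were called in neither. Calls of the other marker lists against the single inhibitors are not given.

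**Figure D5:**
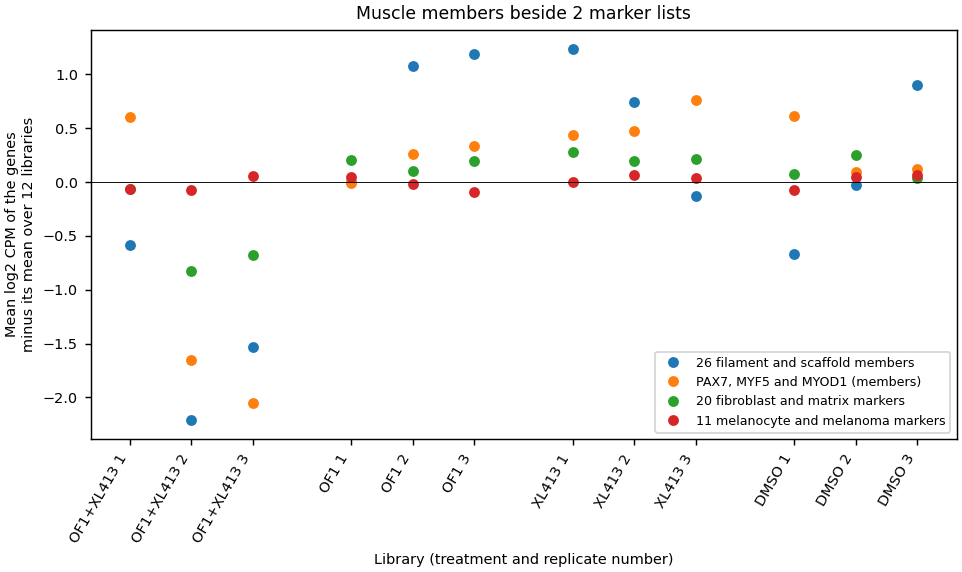
Mean log2 CPM of 4 gene sets in each of the 12 libraries (1 point per library and set), each set minus its own mean over the 12. The 26 filament and scaffold members and the group of PAX7, MYF5 and MYOD1 are lowest in OF1+XL413 replicates 2 and 3, fibroblast and matrix markers are lowest there too, and melanocyte and melanoma markers lie near 0 throughout.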

How the data were processed

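RNA of 12 A375 libraries was measured by poly(A), strand-specific RNA-seq. The deposited values are the authors' expected counts by gene symbol, estimates with fractions and without scaling of libraries. Per the submitters' processing notes, the tools were RSEM 1.2.15 and Bowtie2 2.1.0, with hg38 as the build. The annotation used and the strand setting (not given in the sources used here) limit what can be said of overlapping genes. Fractions stood in 10.6% of values, all rounded before the fit.

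Genes passing edgeR's filterByExpr (15353 of 26475) were fitted with TMM factors and 1 mean per group over all 12 libraries (quasi-likelihood F test, 8 residual degrees of freedom, edgeR 4.0.16, R 4.3.3). Standard errors came from the F statistic, as log2 fold change over its root. The script was tested on simulated data with 200 changed genes in each of 2 runs. The spread of a gene is its SD of log2 CPM (prior count 2) within the DMSO, XL413 and OF1 groups. Genes were not matched for count level when the spread was ranked. The drop is the mean log2 CPM (prior count 2) of OF1+XL413 replicates 2 and 3 minus that of the other 10 libraries.

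The members, the lists and the 2 low libraries were chosen with earlier results of these data known. Non-members named are the 10 most like the muscle score, up to 4 genes per list of largest change, chromosome neighbours, markers near 0 and, chosen after their values were seen, genes called within a list and TMEM8C. Replicates differed by more than counting noise (chi-square per degree of freedom 2.33 to 14). Deviations of same-numbered libraries of different groups correlated by -0.16 to 0.20 over all tested genes. No values for differently numbered libraries are set beside these, so whether the numbers pair libraries is not settled. Alternatives were RLE factors, no filter, DESeq2 1.42.0, limma-voom (limma 3.58.1), the replicate block, leaving out libraries and, for the score, a prior count of 0.5, all 40 members or summed CPM. Some genes of the lists are not reported here by name.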

Additional observations from a re-analysis of the deposited data

Results flagged for a closer look

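MYBPC1, a myosin-binding protein of slow muscle with 1 to 11 counts per library, had all 3 OF1 libraries and all 3 XL413 libraries above the DMSO mean, while the mean CPM of OF1+XL413 was 0.359 times that of XL413 and 0.359 times that of OF1, with every OF1+XL413 library below every library of the single inhibitor. These opposite directions stand on few reads, the gene did not pass the filter on low counts, and the difference was not tested.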

How the results depend on the processing

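Counts of called members moved with the libraries left out. The fits without OF1+XL413 replicates 2 and 3 keep 1 library in that group, assumed to vary like the others, and call fewer genes of any kind. A low count there is also what fewer samples give, so their counts of members are not set beside the others here. For OF1+XL413 against DMSO the count was 10 in all and 27 with no filter on low counts (1640 of 21118 genes called). Leaving out 1 library at a time gave 0 (751 of 15520 genes) to 27 (2113 of 15523). Against XL413 it was 23, with 13 in limma-voom (528 of 15353 genes). On leaving out 1 library it was 1 to 35 against XL413, and 828 of 15523 genes were called with the 35. Against OF1 it was 27, and 0 (212 of 15519 genes) to 34 (2227 of 15523) on leaving out 1. Non-additivity had 0 members called, 26 with no filter (132 of 21118 genes) and 4 in DESeq2 (108 of 15353). It had 0 to 28 on leaving out 1 library, the 28 without OF1+XL413 replicate 1 (362 of 15523 genes). XL413 and OF1 against DMSO stayed at 0 under every setting run, leaving out 1 library included (0 to 0). The cause of the counts with no filter was not tested. Signs were followed for OF1+XL413 against DMSO only, in 39 members and 43 non-members. No called log2 fold change among these turned its sign. Of uncalled ones for OF1+XL413 against DMSO, 5 members turned theirs without OF1+XL413 replicates 2 and 3: PAX7 had 0.21 in place of -1.16, MYF5 0.46 in place of -0.79, MYOD1 0.26 in place of -0.84, CHRNA1 0.29 in place of -0.87 and TNNT1 0.05 in place of -0.01. TNNT1 also had 0.09 without OF1+XL413 replicate 2 and 0.08 without DMSO replicate 3. Of 43 non-members followed, 11 turned theirs without those 2 libraries (values of -0.10 to 0.20), and 7 under other settings, with values within 0.04 of 0.

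The replicate block, run for all comparisons, gave 5 members for OF1+XL413 against DMSO in place of 10 (1573 of 15353 genes called). It moved no other count of members by more than 1.5 times. Whether the numbers pair the libraries is not settled.

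The following were run after the data were seen. The 94 other muscle genes had 13 called for OF1+XL413 against DMSO, 3 to 33 on leaving out 1 library and 2 without OF1+XL413 replicates 2 and 3. The 20 fibroblast markers had 13, with 5 to 15 on leaving out 1 library and 4 without those 2.

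The median r between members was 0.79, and 0.77 to 0.85 on leaving out 1 library. The drop of the muscle score, -2.14, was -2.33 with a prior count of 0.5 and -1.99 from the summed CPM. Depth limits PAX7, MYF6, TNNI2, CHRND and MYBPC1, whose counts in OF1+XL413 replicates 2 and 3 are a few reads.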
